A study of Mus musculus with 16 samples.

Results

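The H3K9me3 sites considered here are the peaks of the nEA-HFSC list that shared at least 1 bp with an H3K9me3 peak of each of the EA-HFSC, LC-HFSC and nLC-HFSC lists. There were 412 such sites among the 17873 nEA-HFSC peaks, or 2.31% (95% Wilson interval 2.10 to 2.54). The lists came from chromatin immunoprecipitation followed by sequencing of mononucleosomes from 4 populations sorted from the skin of CD1 x FVB mice. Each sort took 15 to 20 mice, labelled male, whereas the study's methods give both sexes for most of its analyses. EA-HFSCs (early anagen, postnatal days 22 to 25) and LC-HFSCs (late catagen, postnatal days 38 to 44) were CD34+/α6-integrin+ hair follicle stem cells of the bulge, and nEA-HFSCs and nLC-HFSCs were the CD34-/α6-integrin+ cells of the same ages. The mice carried no transgene or treatment in the labels, the CD34- gate held a mixture of epidermal and lower outer root sheath cells, and sorted animals were pooled. Replicate reads had been pooled before peaks were called, so each population and mark had 1 list, no comparison had a replicate check, and all intervals below cover counting error only.

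The sorts were checked through H3K4me3, a mark of active promoters, and H3K27me3, the mark of Polycomb repression, at the starts of marker genes. The gene starts of Krt5, Krt14, Itgb4 and Cdh1, which mark epithelial cells, carried an H3K4me3 peak within 3000 bp in all 4 populations, whereas Itga6 and Trp63 had none there. Cd34 carried an H3K4me3 peak in EA-HFSCs and LC-HFSCs and none in the CD34- populations, where it carried an H3K27me3 peak in its place. By H3K4me3 the other bulge markers separated the sorts less, since Lgr5, Krt15, Sox9 and Nfatc1 carried H3K4me3 in all 4 populations, and of the 6 bulge markers 6, 6, 5 and 4 did in EA-HFSCs, LC-HFSCs, nEA-HFSCs and nLC-HFSCs. H3K27me3 stood at 0, 0, 4 and 4 of these 6 in the same order, namely at Cd34, Lgr5, Sox9 and Lhx2 in both CD34- populations. None of 5 leukocyte genes had an H3K4me3 peak at its start in any population. By the same measure, 4, 3, 4 and 2 of 5 melanocyte genes and 3, 3, 3 and 2 of 5 genes of fibroblasts and endothelium had one in EA-HFSCs, LC-HFSCs, nEA-HFSCs and nLC-HFSCs. The part of such cells in the shared sites was not tested.

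H3K9me3 is laid down by enzymes such as SETDB1 and SUV39H1, is bound by HP1 proteins and marks compact, silent chromatin, mostly over repeats and over some families of clustered genes. The largest of these families encodes KRAB zinc finger proteins, transcription factors that bind DNA through rows of C2H2 fingers and recruit TRIM28 and SETDB1 to their targets. Their own genes are known to carry H3K9me3 over the exon that encodes the fingers. H3K4me3 marks active promoters, and H3K27me3, the product of the Polycomb enzyme EZH2, marks silent developmental genes. H3K9me3 and H3K27me3 are usually found at different loci.

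Each C2H2 finger is encoded by a unit that repeats every 84 bases, so its DNA can be read directly under a site. The 3 sequences that follow lie under shared sites in the zinc finger genes Zfp110, Zfp933 and 2610008E11Rik, each with 3 finger units in a row on the coding strand. The fourth lies under a shared site on chromosome 12 where the annotation holds no gene. They are shown because finger units recurred under the shared sites, and capitals mark the codons of the zinc-binding cysteines and histidines.
Zfp110, chr7:13434843-13435094, + strand: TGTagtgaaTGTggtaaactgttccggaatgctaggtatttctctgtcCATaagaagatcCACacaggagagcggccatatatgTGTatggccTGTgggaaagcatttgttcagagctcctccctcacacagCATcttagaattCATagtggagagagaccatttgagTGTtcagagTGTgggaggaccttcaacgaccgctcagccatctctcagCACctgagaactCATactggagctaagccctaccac
Zfp933, chr4:147200599-147200850, - strand: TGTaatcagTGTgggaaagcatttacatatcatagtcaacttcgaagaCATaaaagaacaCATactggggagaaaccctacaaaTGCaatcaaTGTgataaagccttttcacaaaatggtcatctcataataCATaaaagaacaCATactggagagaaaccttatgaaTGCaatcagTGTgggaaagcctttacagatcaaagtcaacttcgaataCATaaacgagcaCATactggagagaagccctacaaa
2610008E11Rik, chr10:78529981-78530232, - strand: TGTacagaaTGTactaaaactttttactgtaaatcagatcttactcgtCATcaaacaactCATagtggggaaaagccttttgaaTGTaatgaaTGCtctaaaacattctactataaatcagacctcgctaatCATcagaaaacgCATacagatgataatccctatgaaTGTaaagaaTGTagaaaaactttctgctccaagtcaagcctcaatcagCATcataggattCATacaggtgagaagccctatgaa
No annotated gene, chr12:20249536-20249787, + strand: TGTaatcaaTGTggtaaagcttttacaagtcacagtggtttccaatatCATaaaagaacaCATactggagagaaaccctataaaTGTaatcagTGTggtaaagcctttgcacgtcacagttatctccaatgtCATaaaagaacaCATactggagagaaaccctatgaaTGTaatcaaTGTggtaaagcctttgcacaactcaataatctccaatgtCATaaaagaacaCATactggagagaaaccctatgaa

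A shared site without finger DNA is shown next, as the middle 300 bases with each CpG in capitals. Its lowest percentile over the 4 lists was the highest of all shared sites, and it held 10 CpGs in these bases.
Site on chromosome 12, chr12:20236227-20236526, + strand: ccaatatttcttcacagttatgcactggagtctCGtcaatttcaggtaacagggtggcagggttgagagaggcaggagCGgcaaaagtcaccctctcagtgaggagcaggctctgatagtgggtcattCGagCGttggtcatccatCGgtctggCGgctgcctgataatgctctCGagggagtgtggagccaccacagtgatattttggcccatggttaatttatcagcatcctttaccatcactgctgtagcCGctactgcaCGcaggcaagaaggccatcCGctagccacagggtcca

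The number of shared sites was set mainly by the LC-HFSC list. It held 1414 H3K9me3 peaks, against 42277 for EA-HFSCs, 17873 for nEA-HFSCs and 18236 for nLC-HFSCs. Of the nEA-HFSC peaks, 6.67% overlapped an LC-HFSC peak, 17.8% an EA-HFSC peak and 22.3% an nLC-HFSC peak. Counted from the other side, 396 of the 1414 LC-HFSC peaks, or 28.0% (25.7 to 30.4), overlapped a peak of each of the other 3 lists, against 0.946% of EA-HFSC peaks and 2.22% of nLC-HFSC peaks. Without the LC-HFSC list, 1390 nEA-HFSC peaks met the rule, against 696 without the EA-HFSC list and 557 without the nLC-HFSC list. A total of 284 peaks missed the rule for want of an EA-HFSC peak alone, 978 for want of an LC-HFSC peak alone and 145 for want of an nLC-HFSC peak alone. When the peaks of all lists were merged into 66647 loci, 405 of them held a peak of every population. The lists do not give the depth of each library. The study states that LC-HFSCs had the larger number of reads of the CD34+ pair and that peak detection for H3K9me3 was not saturated. How the background of each library bears on the length of its list was not tested.

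The shared sites were wide and, in the list they were drawn from, high. Their median width was 3602 bp (range 879 to 28031) against 1061 bp for the other 17461 nEA-HFSC peaks, and 338 of 412 (82.0%) were at least 2000 bp wide, against 10.3% of the others. A wide peak has more room to meet a peak of another list, and how far width alone gives the overlap was not tested. The median MACS score (the negative log10 of the peak's p-value, times 10) was 377 (40.2 to 1824) against 61.0. Of the 100 nEA-HFSC peaks with the highest scores, 81 were shared sites, and the top 1787 peaks of the list held 309 of the 412. In the other lists the same sites stood lower, at a median percentile of 69.2 in EA-HFSCs, 69.0 in LC-HFSCs and 92.0 in nLC-HFSCs, compared with 97.7 in nEA-HFSCs. These values come from the contrast that chose the sites and are a description of them.

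**Figure D1:**
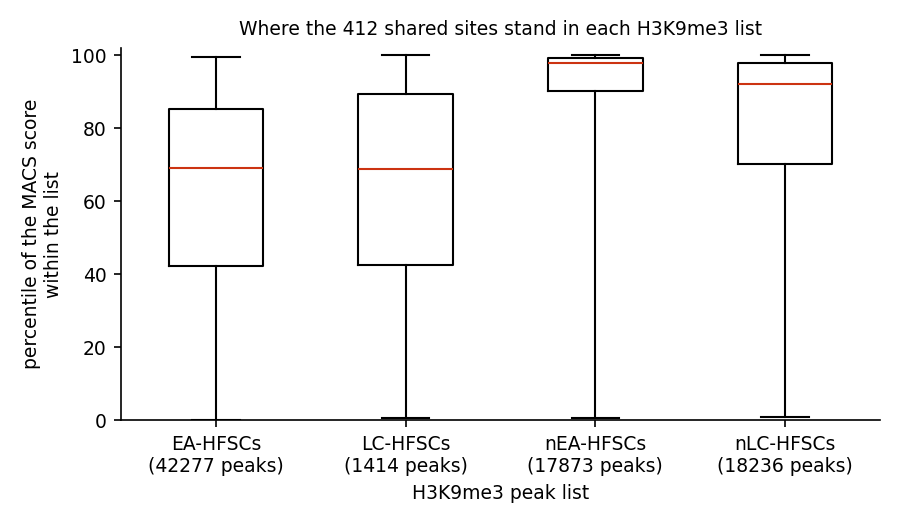
Percentile of the MACS score of each of the 412 shared sites within each H3K9me3 list, where 100 is the top of the list (box, quartiles with the median as a line; whiskers, lowest and highest site). The sites sit near the top of the nEA-HFSC list, with a median of 97.7, and spread over most of the EA-HFSC and LC-HFSC lists, with medians of 69.2 and 69.0.

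Sharing at least 1 bp with each list is a loose criterion. Only 290 of the 412 sites (70.4%, 65.8 to 74.6) held a base that lay in a peak of all 4 lists, and over these the common stretch had a median of 517 bp (8 to 7877). LC-HFSC peaks covered a median of 67.0% of a site, nLC-HFSC peaks 37.7% and EA-HFSC peaks 25.2%. Just inside the rule, the site at chr3:106522168-106524212 shared 29 bp with the LC-HFSC list and the site at chr5:102457249-102460611 shared 47 bp with the nLC-HFSC list. Just outside it, the peak at chr7:28813224-28815493 missed an EA-HFSC peak by 13 bp and the peak at chr12:110778013-110781468 missed an LC-HFSC peak by 34 bp. At this edge, sites inside and outside the rule differed by less than 100 bases.

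The widest common stretch belonged to a site in a region of chromosome 12 without annotated protein-coding genes, chr12:20232417-20240336, whose middle is printed above. Its score was 439 in EA-HFSCs, 445 in LC-HFSCs, 1814 in nEA-HFSCs and 230 in nLC-HFSCs, which ranked it 427, 1, 2 and 74 in the 4 lists. It was thus the highest peak of the LC-HFSC list, and 7877 of its 7920 bp lay in a peak of every population. Its GC content was 51.1% and its ratio of observed to expected CpG 0.491, against medians of 41.4% and 0.167 over the shared sites. The highest peak of the nEA-HFSC list lay in Zfp110, chr7:13423571-13436674, with a score of 324 in EA-HFSCs, 93.5 in LC-HFSCs, 1824 in nEA-HFSCs and 833 in nLC-HFSCs. It also ranked 8 in the nLC-HFSC list. In EA-HFSCs the highest peak at a shared site ranked only 266, with a score of 611, and its site lay 13540 bp from Hoxb13, a homeobox gene of the posterior body (chr11:96070796-96073807, with scores of 101 in LC-HFSCs, 445 in nEA-HFSCs and 316 in nLC-HFSCs). Here and below, a distance to a gene runs from the middle of a site to the nearest end of the gene, so that a wide site can reach or touch a gene from which its middle lies some distance away.

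Other sites high in every list lay in Pcdhgc5, a clustered protocadherin gene (chr18:37892705-37900840, worst percentile 98.3), on the unplaced part of chromosome 9 (98.0), in the zinc finger gene 2410141K09Rik (chr13:66531856-66537895, 96.4) and 63378 bp from Tshz1, which encodes a zinc finger homeodomain factor (chr18:84116124-84119158, 95.1). They were followed by a pair of sites in the cluster of chromosome 5 described below (94.8 and 94.3), by sites whose middles lay 4239 bp from Zfp607 (94.3), 1003 bp from Zfp850 (94.0) and 428 bp from Gm8290 (94.0). With the site on chromosome 12 these were the 10 highest by worst percentile, and 8 of the 10 lay in clusters of shared sites.

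The sites were spread unevenly over the chromosomes. Chromosome 17 held 49 (5.14 per 10 Mb) and chromosome 13 held 59 (4.91 per 10 Mb), followed by chromosome 18 with 26 (2.86 per 10 Mb) and chromosome 5 with 34 (2.23 per 10 Mb). Chromosomes 3, 6, 14 and 15 held 4 to 6 each, and 16 sites lay on unplaced sequence. None of the 88 nEA-HFSC peaks on chromosome X and none of the 8 on chromosome Y was shared. With so few peaks, a count of 0 is not far from what the 2.31% of the whole list gives. Relative to the nEA-HFSC peaks of each chromosome, 5.24% were shared on chromosome 17 and 4.55% on chromosome 13, against 0.514% on chromosome 6. These are the members' own share of the list they were drawn from, and no test was made.

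**Figure D2:**
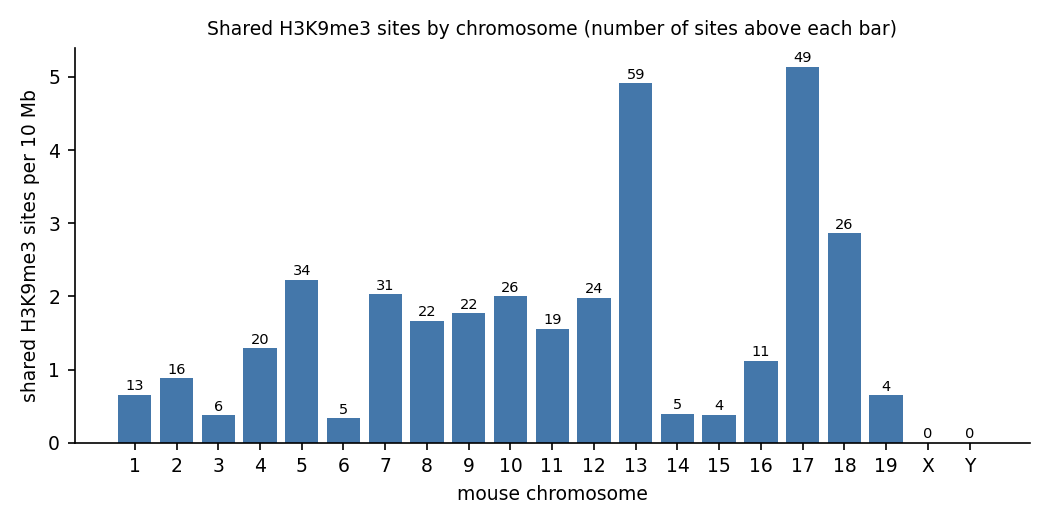
Number of shared H3K9me3 sites per 10 Mb of each mouse chromosome, with the number of sites above each bar (bars start at 0, and the 16 sites on unplaced sequence are left out). Chromosomes 13 and 17 stand above the others at 4.91 and 5.14 sites per 10 Mb. X and Y, with only 88 and 8 nEA-HFSC peaks, hold none.

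Neighbouring sites formed chains. With at least 3 sites at most 100 kb apart counted as a cluster, 33 clusters, some on unplaced sequence, held 173 of the 412 sites (42.0%, 37.3 to 46.8). By the same rule 67.3% of all nEA-HFSC peaks lay in a cluster, since that list is far denser, so the share itself does not set the shared sites apart. Of the 33 clusters, 24 contained a gene with at least 3 encoded C2H2 fingers and 29 contained such a gene or finger DNA under a site. A total of 11 clusters held 5 or more sites, and together they held 99.

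The largest cluster, chr18:37650738-37931196, had 16 sites over 280 kb of the protocadherin beta and gamma genes, which encode cell adhesion molecules chosen at random promoter by promoter in neurons. It contained Pcdhb18, Pcdhb19, Pcdhb21, Pcdhb22 and Pcdhgc5 besides Taf7, a subunit of the general transcription factor TFIID, and Slc25a2. It held no finger DNA and was the cluster with most of the other marks, with an H3K4me3 peak at 10 and an H3K27me3 peak at 7 of its 16 sites. The gene model of Pcdhgc5 in the annotation spans much of the gamma cluster and held 10 sites, so a site in it need not belong to that gene alone. Its highest site, chr18:37906988-37919436, had scores of 101, 184, 1627 and 106 in EA-HFSCs, LC-HFSCs, nEA-HFSCs and nLC-HFSCs.

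The other large clusters held zinc finger genes or finger DNA. On chromosome 5, chr5:110098027-110559940 held 14 sites and 6 C2H2 genes among 5430403G16Rik, 4930522L14Rik, Gm15446, Zfp932, Gm17655, Plcxd1, Gtpbp6 and Zfp605. Here 8 sites lay over finger DNA with 123 finger units in all, and no site carried H3K4me3 or H3K27me3. On chromosome 13, chr13:67571733-67814449 held 9 sites, all of them in C2H2 genes, among Zfp874b, Zfp58, Zfp87, Zfp748, AA987161, A530054K11Rik and Zfp738. A second cluster of that chromosome, chr13:62405963-62880348, held 10 sites around Zfp935, Zfp934, Gm3604 and 6720489N17Rik, 5 of them with finger DNA. On chromosome 10, chr10:81465511-81695054 held 10 sites around Zfp873, AU041133, Zfp938 and Gm8290.

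Some clusters had few or no coding genes in the annotation, and they still held finger DNA. The cluster chr17:17329534-17477934 had 11 sites and only Gm6712 as a coding gene, and 3 of its sites held 46 finger units. The neighbouring cluster chr17:17101933-17181538 had 7 sites and BC002059, and 2 of its sites held 33 units. The cluster chr12:20211296-20304116 had 7 sites, no coding gene and a median nEA-HFSC score of 1140. One of its sites, chr12:20247571-20254869, held 19 finger units, 3 of which are printed above, and had scores of 126 in EA-HFSCs, 126 in LC-HFSCs, 1743 in nEA-HFSCs and 105 in nLC-HFSCs. Altogether 5 clusters without a C2H2 gene held a site with finger DNA.

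By their middle, 234 of the 396 sites on placed chromosomes lay between protein-coding genes (59.1%, 54.2 to 63.8), against 69.8% of the other nEA-HFSC peaks. Introns held 90 (22.7% against 27.9%), and the difference went to exons. Exons outside the untranslated regions held 35 (8.84%, 6.42 to 12.0, against 0.978%) and 3′ untranslated regions held 23 (5.81%, 3.90 to 8.56, against 0.640%). Promoters, taken as 1000 bp before a transcript start and 100 bp after it, held 12 (3.03% against 0.652%), and 5′ untranslated regions held 2. The median distance to a gene start was 20.0 kb for the sites and 44.8 kb for the other peaks.

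Most sites on exons lay in zinc finger genes. Of the 396 sites, 88 had their middle in a gene that encodes at least 3 C2H2 fingers (22.2%, 18.4 to 26.6), against 2.67% of the other nEA-HFSC peaks and a background of 3.11% of all of them. By gene symbol alone (Zfp and related names) the count was 66 (16.7%, 13.3 to 20.7) against 1.72%. A further count of sites within 50 kb of a C2H2 gene gave 173 (43.7%) against 7.31%. The share in C2H2 genes was 14.7% in the whole LC-HFSC list, 2.08% in the EA-HFSC list and 3.48% in the nLC-HFSC list, so the short LC-HFSC list, which the rule uses, was itself rich in such peaks. By the number of other lists that a nEA-HFSC peak overlapped, the share of all peaks, unplaced ones included, was 1.97% with 0, 3.30% with 1, 6.04% with 2 and 21.4% (88 of 412) with 3.

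Of the 567 C2H2 genes of the annotation, 75 held a site (13.2%, 10.7 to 16.3), against 133 of all 22367 protein-coding genes (0.595%). Genes whose protein held letters like those of a KRAB domain did so more often, with 57 of 242 (23.6%, 18.6 to 29.3) against 18 of 325 (5.54%, 3.53 to 8.58) without them. The 75 genes encoded a median of 12.0 fingers (3 to 33) and the other C2H2 genes 9.00. The sites lay late in these genes, at a median of 79.8% of the gene length from its start, whereas sites in other coding genes lay at 51.7%. In 57 of the 75 genes every finger lay under shared sites, and in all 795 of their 989 fingers did. In 12 genes no finger lay under a site.

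**Figure D3:**
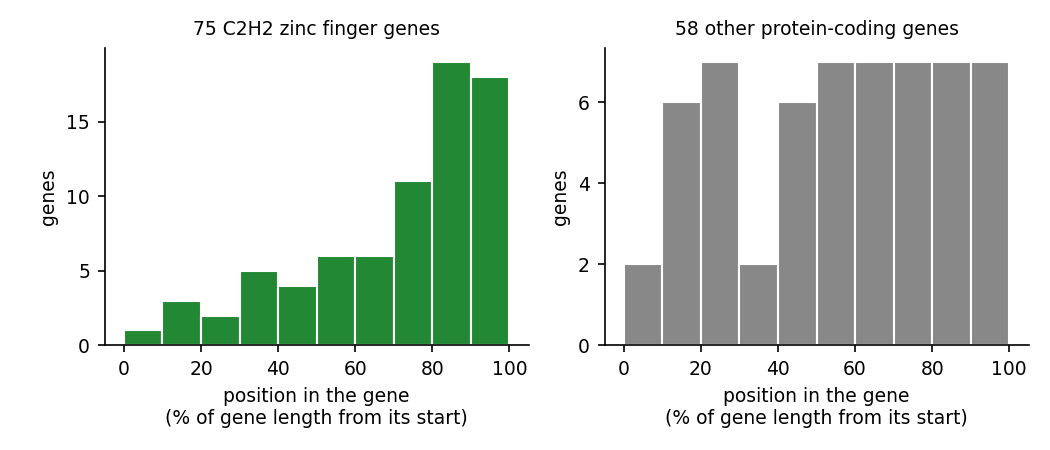
Position of the highest-scoring shared site along each gene that held one, in percent of the gene length from its start, for 75 C2H2 zinc finger genes (left) and 58 other protein-coding genes (right); bars are numbers of genes. The sites in zinc finger genes pile up towards the end of the gene, and those in other genes are spread along it.

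The genes with the highest sites show the pattern one by one. Zfp110 had all 5 of its fingers under its site. In Zfp933, with all 12 fingers covered, the site had scores of 162 in EA-HFSCs, 82.0 in LC-HFSCs, 1543 in nEA-HFSCs and 180 in nLC-HFSCs. In Zfp936, with all 11 fingers covered, they were 77.5, 181, 1507 and 66.6 in the same order. In 2610008E11Rik, with all 14 fingers covered, they were 156, 62.6, 1307 and 171. In each of these genes the nEA-HFSC score was the highest of the 4, but scores rest on the depth and background of a list and do not compare populations.

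Among the genes with lower scores, Zfp157, Gm7221, Zfp606, Zfp949, Zfp329, Zfp930, Zfp2, Zfp68 and Zfp120 each had all of their fingers under the highest site, with nEA-HFSC scores from 935 in Zfp2 to 1271 in Zfp157. Among them the LC-HFSC score was highest in Zfp329, at 192, and lowest in Zfp949, at 78.5. Zfp712 and Zfp945, with 20 and 18 fingers covered, and AW146154, with 12, had nEA-HFSC scores of 942, 941 and 960. The highest sites of Zfp758, at 1215, and Zfp935, at 972, fell in the same range and covered none of their fingers, which lay under the other site of each gene. Zfp950, at 1253, carries a zinc finger name but was not counted as a C2H2 gene from its annotated coding sequence. Its site, chr19:61190587-61198076, nevertheless held 17 finger units.

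The starts of most of these genes carried H3K4me3. Among the 75 C2H2 genes, 59 had an H3K4me3 peak within 3000 bp of the gene start in EA-HFSCs (78.7%), 57 in LC-HFSCs (76.0%), 58 in nEA-HFSCs (77.3%) and 58 in nLC-HFSCs (77.3%). Over all protein-coding genes the shares were 60.4%, 53.9%, 59.6% and 56.6%, and over the other 492 C2H2 genes 75.2%, 68.9%, 74.0% and 71.3%. Neither CD34+ population had H3K27me3 at any of the 75 starts, which was found at 2 in nEA-HFSCs and at 1 in nLC-HFSCs, against 13.0%, 3.39%, 15.6% and 11.9% of all coding genes. With 75 genes, a count of 0 has a Wilson upper limit of 4.87%. H3K9me3 peaks of the whole lists also lay within 3000 bp of some of the 75 starts. They did so at 53 starts in EA-HFSCs, 10 in LC-HFSCs, 30 in nEA-HFSCs and 26 in nLC-HFSCs. Over all coding genes these shares were 45.2%, 0.295%, 2.80% and 11.6% in the same order. An EA-HFSC H3K9me3 peak, which the rule requires, was thus common at gene starts of any kind. The reason was not tested.

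Annotated genes gave only part of the finger DNA. When all 6 reading frames of each peak were read for the C2H2 pattern (cysteines 2 residues apart, 12 residues, histidines 3 to 5 apart), 111 of the 396 placed sites held at least 3 finger units (28.0%, 23.8 to 32.6). Of the other nEA-HFSC peaks 0.908% did (0.777 to 1.06). The part of width in this was not tested. Among peaks of at least 2000 bp the shares were 32.3% (27.5 to 37.6) of 325 sites and 4.70% (3.80 to 5.79) of 1746 other peaks. Per length, the sites held 80.1 finger units per 100 kb and the other peaks 7.32. Among peaks of at least 2000 bp these values were 81.7 and 18.3. Within that class the sites were still wider, with a median of 4386 bp against 2558 bp. Among the LC-HFSC, nLC-HFSC and EA-HFSC peaks that overlapped each other list, the shares with finger DNA were 22.3%, 16.4% and 12.7%. The sites with finger DNA held a median of 13.0 units and at most 33. By the number of other lists overlapped the share was 0.449% with 0, 1.06% with 1, 4.28% with 2 and 28.0% with 3.

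**Figure D4:**
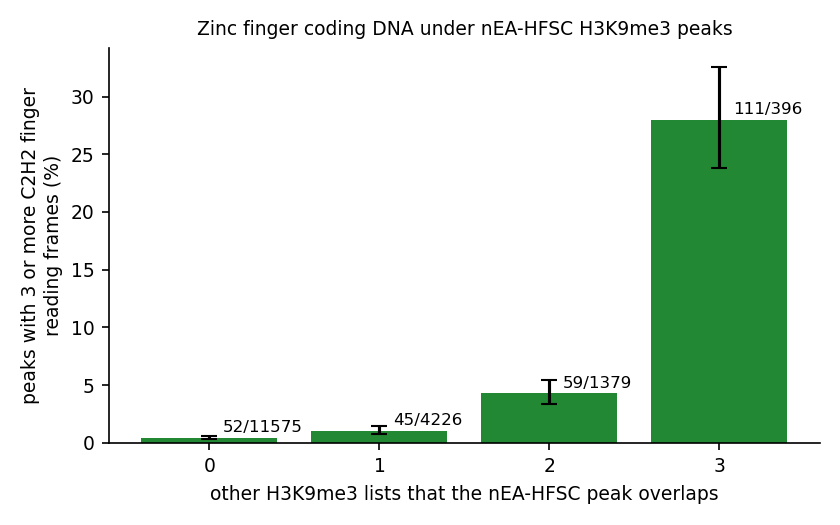
Share of nEA-HFSC H3K9me3 peaks with at least 3 C2H2 finger units in their DNA, by the number of other H3K9me3 lists they overlap (bars, percent; lines, 95% Wilson intervals; numbers, peaks with finger DNA of all peaks on placed chromosomes). The 396 peaks that overlap all 3 other lists reach 28.0%, and those that overlap 2 reach 4.28%.

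Of the 285 sites that touched no C2H2 gene, 32 held finger DNA (11.2%, 8.07 to 15.4), against 66 of 16697 such other peaks (0.395%). Only 2 of these 32 touched a pseudogene or other non-coding gene model of the annotation. With these, 143 of 396 sites (36.1%) touched a C2H2 gene or held finger DNA, and 253 did neither. The highest of the 32 was the site on chromosome 12 whose finger units are printed above. It was followed by a site at Zfp850 with 19 units (chr7:28766692-28776945), a site touching B230307C23Rik with 20 (chr16:98230144-98239998), and sites on chromosome 17 with 18 (chr17:22846829-22856169) and chromosome 5 with 17 (chr5:110306012-110317376).

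A search for words of 31 bases that many sites share, made with no gene model, gave finger DNA as well. Simple repeats aside, 2 of the 5 words chosen to cover most sites were finger DNA. One read as the linker that joins neighbouring fingers, with the linker codons in capitals, and the other as the end of a linker and the pair of cysteine codons with which a finger begins.
Linker word: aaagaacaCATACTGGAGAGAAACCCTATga
Cysteine word: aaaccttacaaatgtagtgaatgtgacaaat
The linker word stood in 24 sites (6.06%) on 9 chromosomes and in 0.175% of the other peaks. Among peaks of at least 2000 bp it stood in 7.08% of the sites and in 0.745% of the others. It occurred 2.86 times per 100 kb of the sites, 0.383 times per 100 kb of the other peaks and 0.0180 times per 100 kb of the genome, where it had 478 copies. Only 5 of these 24 sites had their middle in a C2H2 gene. The cysteine word stood in 9 sites (2.27%) on 2 chromosomes and in 0.0873% of the other peaks, and had 83 copies in the genome. The 3 commonest words had 27829 to 28401 copies in the genome and were found at 1.53 to 2.17 per 100 kb of the sites, against 1.19 to 1.34 in the other peaks. All 5 words were chosen for the number of sites that hold them, so their higher shares in the sites are a description only.

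As a set, the sites were otherwise ordinary in sequence. Their median GC content was 41.4%, against 42.8% in the other peaks and 41.8% in the genome, and their ratio of observed to expected CpG was 0.167, against 0.154 and 0.191. In the middle 300 bp, the median word of 31 bases occurred once in the genome in 310 of 396 sites (78.3%, 74.0 to 82.1), against 82.7% of the other peaks. No site had a median of 100 or more copies, which 0.821% of the other peaks had, and the highest value was 48. The study dropped poorly aligned reads and reports uniquely mapped ones, so sequence of many copies may be missing from every list. How far this filter sets the copy numbers was not tested. At least 500 words were shared with another site by 48 sites (12.1%), which fell into 19 groups. The largest group had 7 sites, all on chromosome 17. The letters TGCCGC on either strand, the core of the methylated motif that ZFP57 binds at imprinted loci, stood in a 1000 bp window of 38 sites (9.60%, 7.07 to 12.9) and of 7.38% of all nEA-HFSC peaks. By place, they stood in 4 of 88 sites in C2H2 genes (4.55%, 1.78 to 11.1) and 20 of 236 between genes (8.47%, 5.55 to 12.7). In other coding genes they stood in 14 of 72 sites (19.4%, 12.0 to 30.0).

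H3K4me3 was rare at the shared sites and yet more frequent than at other nEA-HFSC peaks. An H3K4me3 peak overlapped 18 of 412 sites in EA-HFSCs (4.37%, background over all nEA-HFSC peaks 0.901%), 8 in LC-HFSCs (1.94%, 0.487%), 23 in nEA-HFSCs (5.58%, 0.912%) and 14 in nLC-HFSCs (3.40%, 0.464%). In at least 1 population it overlapped 32 sites (7.77%, 5.56 to 10.8), against 1.32% of all nEA-HFSC peaks. Of those 32 sites, 28 were at least 4000 bp wide, and 10 lay in the protocadherin cluster of chromosome 18. Below 2000 bp, 1.35% of the sites and 1.31% of the other peaks had H3K4me3, from 2000 to under 4000 bp 1.99% and 1.30%, and from 4000 bp 15.0% (10.6 to 20.8) and 3.06% (1.41 to 6.52). By length, H3K4me3 peaks of EA-HFSCs covered 0.926% of the sites and 0.379% of the other peaks. The middle of a site lay inside an H3K4me3 peak of any population in 5 cases.

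H3K4me3 overlapped 5 sites in all 4 populations (1.21%, background 0.274%). The site in Zfp873, chr10:81511677-81532776, had H3K9me3 scores of 138 in EA-HFSCs, 241 in LC-HFSCs, 817 in nEA-HFSCs and 160 in nLC-HFSCs. The site in Taf7, chr18:37801365-37803047, had 197, 191, 124 and 75.9. The site whose middle lay 6366 bp from Orc2, a subunit of the origin recognition complex, had 89.3, 156, 623 and 96.1 (chr1:58562713-58573926). The others lay in 4933421E11Rik (chr3:106522168-106524212) and, by its middle, 5029 bp from Zfp445, a regulator of imprinted loci (chr9:122775261-122777291). Apart from Zfp873, none of these sites held a base in an H3K9me3 peak of all 4 lists.

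**Figure D5:**
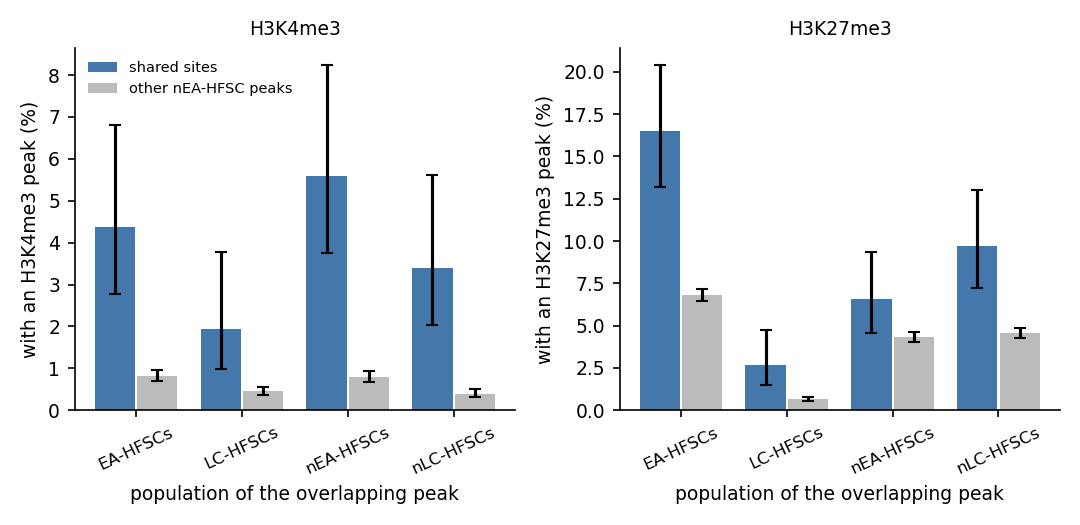
Share of the 412 shared H3K9me3 sites and of the other 17461 nEA-HFSC H3K9me3 peaks that overlap an H3K4me3 peak (left) or an H3K27me3 peak (right) of each population, in percent, with 95% Wilson intervals. The shared sites stand above the other peaks in every population for both marks, and the axes of the panels differ.

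H3K27me3 was the more frequent of the other marks. It overlapped 68 sites in EA-HFSCs (16.5%, background 7.03%), 11 in LC-HFSCs (2.67%, 0.688%), 27 in nEA-HFSCs (6.55%, 4.37%) and 40 in nLC-HFSCs (9.71%, 4.68%). In at least 1 population it overlapped 76 sites (18.4%, 15.0 to 22.5), against 9.76% of all nEA-HFSC peaks. By length the ratio between sites and other peaks was smaller in every population, and in nEA-HFSCs and nLC-HFSCs it turned. In LC-HFSCs, H3K27me3 peaks covered 1.05% of the length of the sites and 0.534% of that of the other peaks, and the same values were 6.05% and 5.16% for EA-HFSCs, 2.78% and 3.49% for nEA-HFSCs, and 3.29% and 3.53% for nLC-HFSCs. Unlike H3K4me3, it was most frequent at the narrow sites, with 24 of 74 below 2000 bp (32.4%, 22.9 to 43.7, against 10.6% of other peaks of that width, counted from the narrowest site), 20.5% from 2000 to under 4000 bp and 11.2% from 4000 bp (7.46 to 16.6). Among other peaks the last 2 shares were 9.44% and 6.12% (3.54 to 10.4), so that the intervals of the widest class overlapped. By the number of other lists overlapped, the share was 4.76% with 0, 16.3% with 1, 29.1% with 2 and 18.4% with 3, and so did not rise steadily. The H3K27me3 lists differed in size, from 1909 peaks in LC-HFSCs to 25534 in EA-HFSCs.

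H3K27me3 was less frequent at the sites with finger DNA than at the others. Among the 111 sites with finger DNA 6 had an H3K27me3 peak in any population (5.41%, 2.50 to 11.3), against 68 of the 285 without (23.9%, 19.3 to 29.1). The first interval holds the 9.76% of all nEA-HFSC peaks and the 11.2% of sites of at least 4000 bp, so the sites with finger DNA stood near the background and those without it above. By gene, it overlapped 4 of 88 sites in C2H2 genes, 17 of 72 in other coding genes (23.6%) and 53 of 236 between genes (22.5%). The sites with finger DNA were the wider ones, with a median of 6756 bp against 2975 bp. H3K4me3 overlapped 12 of the 111 (10.8%) and 18 of the 285 (6.32%), whose intervals overlap. Neither mark overlapped 315 of the 412 sites (76.5%, 72.1 to 80.3), against 89.7% of the other peaks, and both did in 11.

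H3K27me3 overlapped 10 sites in all 4 populations (2.43%, background 0.604%). The site 63378 bp from Tshz1 had H3K9me3 scores of 160 in EA-HFSCs, 166 in LC-HFSCs, 556 in nEA-HFSCs and 176 in nLC-HFSCs. The site 5295 bp from Gsx1, a regulator of neural progenitors, had 382, 46.3, 100 and 264 in the same order (chr5:147993971-147995983). The site 16775 bp from Tlx1, which is needed for the spleen, had 111, 53.7, 105 and 78.6 (chr19:45247441-45248977).

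Others with H3K27me3 in all 4 populations were a pair in an intron of Ostm1 (chr10:42323718-42326937 and chr10:42327189-42328624), one with its middle 3598 bp from Atrn (chr2:130857664-130861671), one with its middle 1237 bp from Tcfl5 (chr2:180377310-180379992), one in 1100001G20Rik (chr11:83563367-83566216) and one on unplaced sequence. Every one of these 10 sites had bases common to the 4 H3K9me3 lists, and none lay in a C2H2 gene. The H3K9me3 and H3K27me3 lists came from the same sorted pools, so that one cell with both marks and a mixture of cells cannot be told apart.

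Stricter rules left few sites, and their makeup depended on the rule. When each other list had to cover at least 50% of the nEA-HFSC peak, 32 sites were left, with a median width of 1894 bp. Of these, 19 had an H3K27me3 peak in at least 1 population (59.4%, 42.3 to 74.5), 7 had one in all 4, and 2 of the 28 placed sites held finger DNA. The 2 were Zfp192 (chr13:21611594-21613503, 9 finger units) and 2610008E11Rik (14 units). When the 1414 highest-scoring peaks of each list were used, 8 sites were left, namely those near Hoxb13, Atrn, Tcfl5 and Zfp850, those in Pcdhgc5 and Zfp110, the site on chromosome 12 printed above and 1 on the unplaced part of chromosome 9. Of these 8, 6 had H3K27me3 and 4 H3K4me3 in at least 1 population, and 2 of the 7 placed sites held finger DNA (28.6%). With all 4 scores required to reach 100, 32 sites were left, of which 16 of the 27 placed sites held finger DNA (59.3%, 40.7 to 75.5). Over all nEA-HFSC peaks, of any score and width, the shares were 9.76% for H3K27me3, 1.32% for H3K4me3 and 1.52% for finger DNA. The shares among other peaks of like score, rank or width were not taken, so these values describe the sites left and not the effect of sharing.

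Other gene lists were read against the 0.595% of all protein-coding genes that held a site. Of 40 imprinted genes 1 held a site, the noncoding RNA Airn, which silences its neighbour Igf2r on the paternal allele. Its site, chr17:13015016-13017069, lay inside the gene on the + strand (chr17:12934177-13052988), had scores of 50.4 in EA-HFSCs, 76.4 in LC-HFSCs, 201 in nEA-HFSCs and 43.7 in nLC-HFSCs, and carried neither H3K4me3 nor H3K27me3. Of the 24 clustered protocadherin genes in the annotation, 3 held a site (Pcdhb18, Pcdhb22 and Pcdhgc5), a higher share than that background. None of 1113 olfactory receptor genes, 328 vomeronasal receptor genes, 104 cytochrome P450 genes, 100 keratin and keratin-associated protein genes, 60 serpin genes, 40 Hox genes, 30 reproductive homeobox genes, 24 genes of the H3K9 methylation machinery and 11 bulge transcription factor genes held one. Any nEA-HFSC H3K9me3 peak overlapped only 2 of the olfactory and 13 of the vomeronasal receptor genes, so few of them could hold a site. For the lists of 328 genes or fewer, a count of 0 is not far from what that background gives.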

How the data were processed

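The labels describe 16 samples, of which the 12 immunoprecipitated for a histone mark each had 1 deposited peak list. The 4 IgG samples served as background and were not analysed here. Per the labels and the methods, the authors trimmed single-end reads with Trimmomatic 0.22, aligned them to mm9 with Bowtie2, pooled replicates and ran MACS with the IgG reads of each population as control. The score deposited by the authors for each peak is the negative log10 of its p-value, times 10, and the lowest scores were 50.0 for H3K4me3 and 40.0 for H3K27me3 and H3K9me3. Depth is not given in the lists, and scores were ranked only within a list.

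Overlaps, positions and sequence were worked out in Python 3.11.15 (numpy 2.4.6, scipy 1.17.1), with figures by matplotlib 3.10.9. The overlap and cluster steps were tested on simulated peaks. Positions are 1-based, with starts in the lists taken as counted from 0. Genes came from GENCODE vM1 and sequences from the NCBIM37 genome, the assembly of mm9. A C2H2 gene is one whose translated coding sequence held at least 3 fingers. KRAB-like letters were 2 short patterns of the KRAB domain. The 16 sites on unplaced sequence took no part in steps that need genes or sequence. Words were chosen one after another, each for the number of sites not yet covered.

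The members, gene lists and tests were chosen with earlier results of these data known, and the rule used the H3K9me3 overlaps themselves. The finger DNA search, the shared words and the width classes were chosen after the values were seen. Named sites were the 10 with the highest worst percentile, the highest of each list, the clusters with most sites, zinc finger genes with the highest nEA-HFSC scores, genes of the other lists that held a site, sites with another mark in all 4 populations, the sites at the edge of the rule, and sites left by a stricter rule or high among those with finger DNA, the last 2 kinds chosen after their values were seen. No test was made, because there is 1 list per population and mark. The alternatives tried were other score thresholds, chromosomes, overlaps, gaps, query lists and gene definitions. A few values are not reported here.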

Additional observations from a re-analysis of the deposited data

How the results depend on the processing

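Each list is 1 pooled library, so no error between replicates is known, and the lists give no depth. No paired analysis was possible because the replicates were pooled in each list. Of 76 values recomputed under alternatives, 38 stayed within 1.5 times the count or within the interval of the reported share, and 38 moved; the cause was not tested. The RefSeq protein definition of zinc finger genes was not run. The translated coding sequence in its place, the search for finger DNA and the width limit were chosen after seeing the data. The 19 autosomes and all annotated genes moved nothing.

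The number of sites was 215 at a score of at least 50, 32 at a score of at least 100, 32 with 50% covered, 8 with equal numbers of top peaks, 696 without EA-HFSCs and 1390 without LC-HFSCs. The share in clusters was 21.9% at 100, 0% with 50% covered or with top peaks, 32.4% with near peaks merged, 53.8% and 54.3% counting EA-HFSC and nLC-HFSC peaks, and 33.0% and 51.9% at gaps of 50 and 500 kb. The share between genes was 71.4% with top peaks, and 52.5% and 51.5% counting EA-HFSC and nLC-HFSC peaks. The share in zinc finger genes, 16.7% by symbol, was 22.1% at 50, 3.57% with 50% covered, 21.5% counting nLC-HFSC peaks and 22.2% by translated fingers. The H3K4me3 share was 12.1% at 50, 31.2% at 100, 50.0% with top peaks, 4.75% and 4.94% counting EA-HFSC and nLC-HFSC peaks, and 1.21% at the middle of the site. The H3K27me3 share was 28.1% at 100, 59.4% with 50% covered, 75.0% with top peaks and 12.9% at the middle. The share with finger DNA was 39.2% at 50, 59.3% at 100, 7.14% with 50% covered, 35.5% with near peaks merged, and 22.3%, 12.7% and 16.4% counting LC-HFSC, EA-HFSC and nLC-HFSC peaks, which are narrower.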
